A study of Homo sapiens with 6 samples.

Results

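The heat shock chaperones described here are 10 genes of the 16760 measured by RNA-seq in H1975 cells, a human lung adenocarcinoma cell line. They are HSPA1A, HSPA1B, HSPA6 and HSPA8 of the HSP70 family, HSPH1 of the HSP110 family, the J domain protein gene DNAJB1, the small heat shock protein gene HSPB1, the cytosolic HSP90 gene HSP90AA1, and the mitochondrial chaperonin pair HSPD1 and HSPE1. They were selected by gene symbol, with results of the comparison between YTHDC2 knockout and WT cells already known, so their own changes are described without a test. The comparison was made to look for genes downstream of YTHDC2, an RNA helicase that binds m6A-modified RNA. One group held 3 libraries labelled YTHDC2 knockout and the other held 3 libraries labelled WT, both from H1975 cells with no further treatment in the labels. The study made its knockout cells with CRISPR, and whether the sequenced cells came from 1 clone was not given in the sources used here. Nothing in the labels says that replicates were separate cultures, so the spread and the p-values below cover only the variation between these libraries.

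HSP70 proteins bind unfolded stretches of client proteins in cycles driven by ATP. J domain proteins such as DNAJB1 bring clients and start ATP hydrolysis, and HSP110 proteins such as HSPH1 exchange the nucleotide. HSP90 takes over partly folded clients, small heat shock proteins hold unfolded protein without ATP, and the HSPD1 and HSPE1 proteins form the folding chamber of mitochondria. In stressed cells, and to a varying degree in cancer cells, the factor HSF1 binds heat shock elements, which are alternating GAA and TTC units in promoters, and drives transcription of many of these genes.

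Promoter sequences with runs of exact units of this kind are shown first, for some of the members. Only exact units were searched for, so a longer element with a changed unit can count as a short one or as no match. RefSeq starts (GRCh38.p14) were available for all 10 members, and the 250 bases before each start were searched for 3 units (GAANNTTCNNGAA or TTCNNGAANNTTC) and for 2 units (GAANNTTC or TTCNNGAA). The 3-unit motifs are reverse complements of each other and each 2-unit motif is its own, so both strands were covered, and every 3-unit match also contains 2-unit matches. Capitals mark the matched units, and each line reads 5′ to 3′ along the strand of its gene.
HSPA1A, chr6:31815422-31815459, plus strand: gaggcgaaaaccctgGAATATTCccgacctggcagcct
HSPA1B, chr6:31827618-31827655, plus strand: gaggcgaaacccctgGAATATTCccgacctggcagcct
HSPA6, chr1:161524451-161524493, plus strand: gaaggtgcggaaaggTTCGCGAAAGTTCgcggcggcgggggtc
HSPA8, chr11:123062174-123062196, minus strand: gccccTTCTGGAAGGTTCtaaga
HSP90AA1, chr14:102087104-102087133, minus strand: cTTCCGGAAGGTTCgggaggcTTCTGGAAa
HSPD1, chr2:197500063-197500090, minus strand: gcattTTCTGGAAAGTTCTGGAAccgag

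The HSPA1A and HSPA1B windows held the same 2 units, 106 and 105 bases before their starts, and lay outside every GENCODE v29 gene. The HSPA6 match began 74 bases before its start, in no annotated exon. The HSPA8 match shown, 55 bases before its start, the other HSPA8 match, 230 bases before it, and the HSP90AA1 match, 88 bases before the second of its starts, overlapped exons of other transcripts of the same gene. The HSPD1 match stood 245 bases before the second HSPD1 start and overlapped exons of both HSPD1 and HSPE1, whose RefSeq starts lie 105 bases apart. A 3-unit match was found for 4 of the 10 members, which were HSPA6, HSPA8, HSP90AA1 and HSPD1 (40%). It was found for 4 of 107 other chaperone genes with a RefSeq start (3.74%) and for 152 of 27305 genes in all (0.557%). At least 2 units stood before 8 of the 10 members (80%), before 22 of the other 107 chaperone genes (20.6%) and before 3813 of all genes (14%). The 2-unit matches of HSPB1 and DNAJB1, and a further one of HSPA6, are not shown. HSPH1 and HSPE1 had no match in this window. The letters are a description of sequence and show no binding in these cells.

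The libraries held 32131238 to 33823371 fragments in YTHDC2 knockout and 27200187 to 30336116 in WT, as recovered from the steps of the FPKM values (fragments per kilobase of transcript, scaled to the sequenced fragments of the library). YTHDC2 itself measured 7.82, 8.92 and 8.14 FPKM in the knockout libraries and 13.0, 17.1 and 201 FPKM in the WT libraries. All knockout values were below all WT values, but the transcript was still present in the knockout and WT replicate 3 stood far above the other WT libraries (log2 fold change -2.09, SE 1.17, limma adjusted p = 0.228, and -0.84 with adjusted p = 0.00223 without that library). Of 9 lung epithelial genes, 4 averaged below 1 FPKM, SFTPC at 0.00298 FPKM among them. Some were higher in knockout than in WT, with means of 97.7 and 82.5 FPKM for KRT8, 73.2 and 60.8 FPKM for KRT18, and 2.41 and 1.93 FPKM for CDH1. Others were lower, with 0.0142 and 1.02 FPKM for KRT19 and 0.246 and 0.818 FPKM for EPCAM. Of 4 mesenchymal genes, VIM averaged 492 FPKM in knockout and 486 FPKM in WT, COL1A1 6.02 and 6.21 FPKM, COL1A2 0.200 and 1.31 FPKM, and PDGFRB 0.180 and 0.255 FPKM. The leukocyte marker PTPRC and the endothelial markers PECAM1 and CDH5 averaged 0.000769, 0.00436 and 0.00720 FPKM over all libraries, while the other leukocyte marker, CD68, averaged 1.44 FPKM in knockout and 2.01 FPKM in WT. The part of these differences in the chaperone values was not tested, and in bulk RNA fewer cells that express a gene cannot be told apart from less of its RNA per cell.

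The sum of the 10 transcripts was lower in YTHDC2 knockout. It measured 2054, 2041 and 1993 FPKM in the knockout libraries and 2410, 2589.6 and 2487 FPKM in the WT libraries, and the groups did not overlap. That was 0.488% ± 0.0107 of all FPKM in knockout and 0.628% ± 0.0337 in WT (mean ± SD, n = 3). The members did not move together, however. Every knockout library was below every WT library for 7 members, every knockout library was above for 2 (HSPA1A and HSPA1B), and the groups overlapped for 1 (HSPB1). Among all 15441 genes tested, 33.1% lay wholly below and 20.7% wholly above. At an adjusted p under 0.05 with an absolute log2 fold change above 1, 2 members were called lower (HSPA6 and HSPH1) and 0 higher, beside 1.99% and 0.732% of all genes. At an adjusted p under 0.05 alone, 7 members were lower and 2 higher, beside 26.2% and 16.6% of all genes. Since this contrast was known when the members were chosen, nothing is read from these counts. The members' median log2 fold change was -0.29, and that of all genes tested was -0.09.

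**Figure D1:**
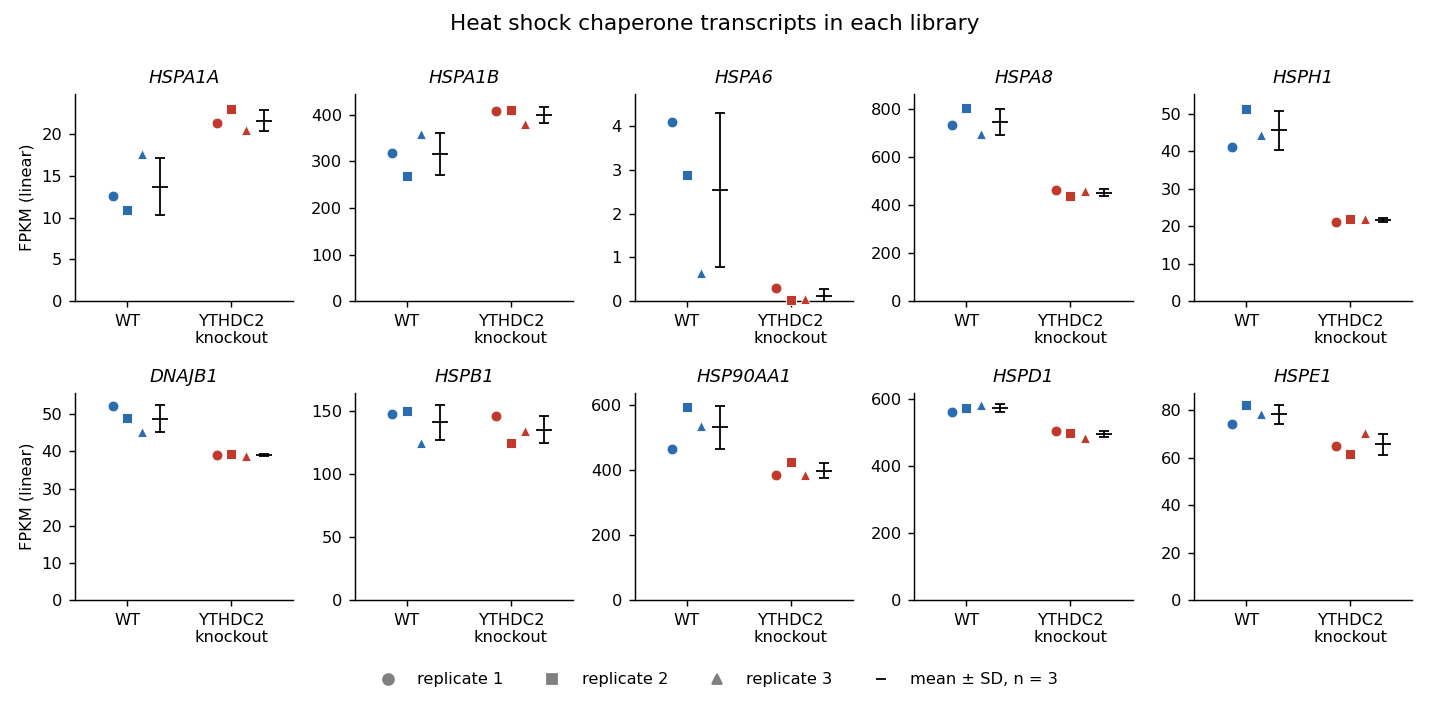
FPKM of the 10 chaperone transcripts in each library, on linear axes from 0 that differ between panels; circles, squares and triangles are replicates 1, 2 and 3, and the black bar is the mean ± SD (n = 3). HSPA1A and HSPA1B sit higher in all YTHDC2 knockout libraries, HSPB1 overlaps between groups, and the other 7 sit lower.

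HSPA8 encodes HSC70, the constitutive cytosolic HSP70, and was the most abundant member in WT. It measured 463, 437 and 458 FPKM in the knockout libraries and 734, 805 and 698 FPKM in the WT libraries. The groups were far apart and the knockout values lay close to one another. The means were 452.5 ± 13.9 and 746 ± 54.5 FPKM, a difference of -39.3%, and the log2 fold change on the scale of FPKM + 0.1 was -0.72 (SE 0.06). HSPA8 ranked first among the members in WT and second, after HSPD1, in knockout, and its libraries did not overlap with those of HSPD1 in either group.

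HSPA1A and HSPA1B encode the stress-inducible HSP70 and went the other way. HSPA1B measured 407, 411 and 379 FPKM in the knockout libraries and 318, 269 and 358 FPKM in the WT libraries. HSPA1A measured 21.4, 23.0 and 20.4 FPKM in knockout and 12.6, 10.9 and 17.6 FPKM in WT. For both genes WT replicate 3 was the highest WT library and came near the knockout values, and WT replicate 2 was the lowest. The log2 fold changes were 0.35 (SE 0.09) for HSPA1B and 0.68 (SE 0.15) for HSPA1A. Without WT replicate 3 they were 0.45 and 0.87. After correction for GC content the value of HSPA1B was 0.16 and that of HSPA1A was 0.47.

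The level of each of these genes is less certain than their sum. The genes lie 9788 bases apart on chr6, each is a single exon, and 1919 of their 1923 coding bases are identical (99.8%). Of the 100-base windows of the HSPA1A transcript, 69.9% also occur in that of HSPA1B, so fragments from these stretches cannot be assigned by sequence. After the coding part HSPA1A has 267 bases and HSPA1B has 382, and 168 are identical (44.0% of the longer). The 250 bases before the RefSeq starts are 94% identical. HSPA1A made up 5.14% ± 0.156 of the sum of both in knockout and 4.13% ± 0.472 in WT. The sum was 428, 434 and 399.8 FPKM in knockout and 331, 280.3 and 375 FPKM in WT. All knockout sums were above all WT sums, with a log2 fold change of 0.36 (SE 0.09) when both were fitted as 1 gene. No 100-base window was shared between HSPA1B and HSPA8 (coding identity 73.3% of the longer sequence) or HSPA6 (80.6%).

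HSPA6 encodes a strictly stress-inducible HSP70 and was the least abundant member. It measured 0.310, 0.0255 and 0.0523 FPKM in the knockout libraries, from 25, 2 and 4 fragments. In the WT libraries it measured 4.09, 2.88 and 0.633 FPKM, from 294, 208 and 41 fragments. Every WT library was above every knockout library, but the WT libraries differed among themselves by 6.47-fold, with replicate 3 the lowest. The mean in WT was 19.6 times that in knockout, and the log2 fold change was -3.40 (SE 0.64). It was -4.15 without WT replicate 3 and -1.50 with a pseudocount of 1. HSPA7, a pseudogene copy beside HSPA6, was not analysed here, and fragments of the pair could have been split.

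Within the cytosolic HSP70 set, HSPA1A, HSPA1B, HSPA6 and HSPA8 added up to 873 ± 16.6 FPKM in knockout and 1077 ± 9.87 FPKM in WT, a difference of -18.9%. HSPA1A and HSPA1B together formed 48.0%, 49.8% and 46.6% of that sum in the knockout libraries and 30.9%, 25.8% and 35.0% in the WT libraries. The makeup of the set thus differed between the groups in every library, with the inducible pair close to level with HSPA8 in knockout and well below it in WT.

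**Figure D2:**
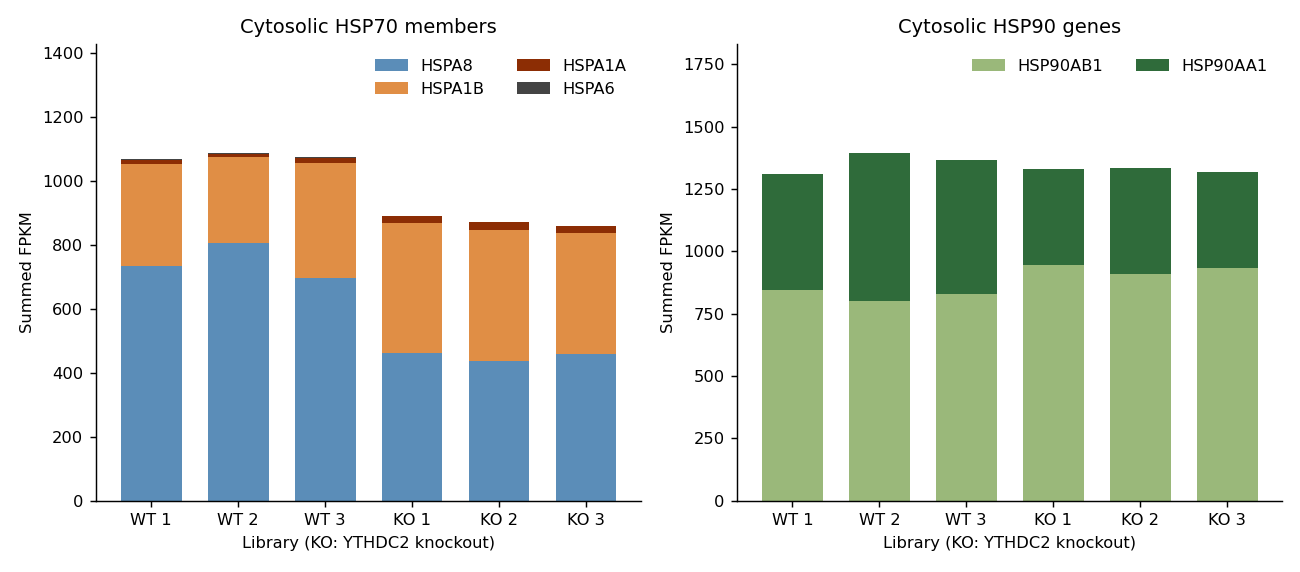
Stacked FPKM of cytosolic HSP70 members (left) and of the cytosolic HSP90 genes (right) in each of the 6 libraries, with 3 WT libraries to the left and 3 YTHDC2 knockout (KO) libraries to the right of each panel. HSPA8 shrinks and HSPA1B grows from WT to knockout, so the HSP70 sum goes from 1077 to 873 FPKM, whereas the HSP90 sum overlaps between groups.

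HSPH1, the nucleotide exchange factor among the members, measured 21.1, 21.9 and 21.9 FPKM in the knockout libraries and 41.2, 51.3 and 44.4 FPKM in the WT libraries. The knockout libraries were nearly equal, and each was below every WT library. The mean was 2.11 times higher in WT, with a log2 fold change of -1.07 (SE 0.08). This lies close to the threshold of 1, and it was -0.83 after correction for GC content, -0.93 after median scaling and -0.98 without WT replicate 2. Against its partner HSPA8, the FPKM ratio of HSPH1 was 0.0479 ± 0.00227 in knockout and 0.0612 ± 0.00437 in WT, with no overlap.

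DNAJB1, the J domain protein that works with HSP70 and HSP110 on aggregated protein, measured 39.1, 39.2 and 38.7 FPKM in the knockout libraries. It measured 52.3, 48.9 and 45.1 FPKM in the WT libraries. All knockout libraries were lower and agreed to within 1.015-fold of one another, and the log2 fold change was -0.32 (SE 0.06). HSPB1, which encodes HSP27, measured 146, 124 and 134 FPKM in knockout and 148, 149.8 and 125 FPKM in WT. Its groups overlapped, with a log2 fold change of -0.06 (SE 0.08) that turned to 0.07 after median scaling and was -0.39 after correction for GC content.

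HSP90AA1 encodes the stress-responsive cytosolic HSP90 and measured 386, 425 and 384 FPKM in the knockout libraries and 465, 595 and 537 FPKM in the WT libraries. The groups did not overlap, and WT replicate 2 was the highest library. The log2 fold change was -0.41 (SE 0.08). HSP90AB1, the constitutive cytosolic HSP90 and no member, averaged 825 ± 22.6 FPKM in WT and rose to 931 ± 17.8 FPKM (log2 fold change 0.17, SE 0.04, limma adjusted p = 0.00578). Under quantile normalization that change was 0.01 with adjusted p = 0.772, and without trend and robust moderation its adjusted p was 0.0571. Divided by HSP90AB1, the level of HSP90AA1 gave 0.408, 0.466 and 0.411 in the knockout libraries, against 0.549, 0.742 and 0.648 in the WT libraries. Every ratio was lower in knockout, while the sum of the pair was 1329 ± 9.03 FPKM in knockout and 1357 ± 43.0 FPKM in WT, with overlapping libraries. In the coding sequences of the pair, 1652 bases are identical. That is 64.5% of the longer one, HSP90AA1, which has 2562 bases against 2172 in HSP90AB1. The pair shares no 100-base window.

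HSPD1 and HSPE1, the mitochondrial chaperonin HSP60 and its co-chaperonin HSP10, showed the smallest shifts among the members whose groups were apart. HSPD1 measured 506, 498 and 485 FPKM in the knockout libraries and 561, 575 and 584 FPKM in the WT libraries. HSPE1 measured 64.9, 61.7 and 70.5 FPKM in knockout and 74.4, 82.1 and 78.5 FPKM in WT. Both were lower in every knockout library, with log2 fold changes of -0.21 (SE 0.04) and -0.25 (SE 0.06). After median scaling the values were -0.07 and -0.12. The ratio of HSPD1 to HSPE1 was 7.59 ± 0.621 in knockout and 7.33 ± 0.285 in WT and overlapped. GENCODE v29 names 26 pseudogenes after HSPE1, 17 after HSPD1 and 17 after HSPA8, and HSPE1 shares its region on chr2 with the read-through gene HSPE1-MOB4; none of these was analysed here, and how fragments of such copies were assigned was not given in the sources used here.

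The order of levels ran HSPA8, HSPD1, HSP90AA1, HSPA1B, HSPB1, HSPE1, DNAJB1, HSPH1, HSPA1A and HSPA6 in WT. HSPD1 and HSP90AA1 overlapped there, as did DNAJB1 and HSPH1. In knockout HSPD1 came before HSPA8 and HSPA1B came before HSP90AA1, though the libraries of the latter pair overlapped, as did those of HSPH1 and HSPA1A. By mean FPKM over all libraries the members ranked from 87 (HSPA8) to 10677 (HSPA6) among the 16760 genes. Among 11111 other genes averaging at least 1 FPKM, those whose profile over the 6 libraries was most like the members' median profile were GLO1, ATXN10 and RARS2, at root mean square distances of 0.0147, 0.0162 and 0.0185 on the log2 scale.

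**Figure D3:**
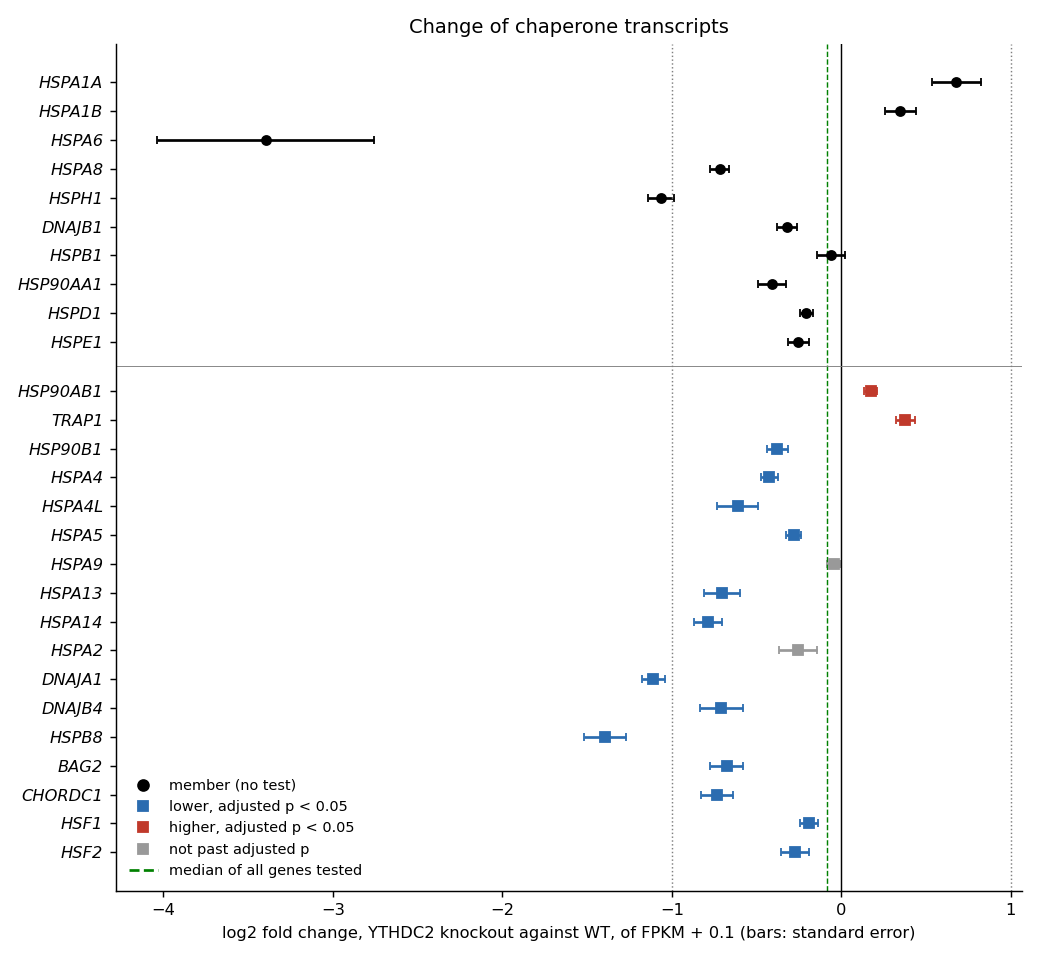
Log2 fold change of FPKM + 0.1 between YTHDC2 knockout and WT, with standard errors, for the 10 members (top, described without a test) and for relatives and regulators (bottom, coloured by the limma adjusted p); the green line is the median of all genes at -0.09 and dotted lines mark -1 and 1. HSPA6 lies farthest to the left at -3.40, and HSPA1A farthest to the right at 0.68.

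Chaperone genes outside the members were lower more often than higher in YTHDC2 knockout. Their 10 lists were chosen with earlier results of these data known, and no set test was run. Of 128 such genes tested, 60 fell and 16 rose at an adjusted p under 0.05, and 52 did not pass; among all genes tested 26.2% fell and 16.6% rose. Their median log2 fold change was -0.19. Past the fold threshold, 2 were called lower, HSPB8 and DNAJA1, and 0 were called higher, beside 1.99% and 0.732% of all genes, so the count is near the share over all genes. HSPB8, a small heat shock protein that works with BAG3 in autophagy, fell from 8.69 ± 0.553 to 3.27 ± 0.547 FPKM (log2 fold change -1.39, SE 0.12, limma adjusted p = 8.18e-05). DNAJA1, a J domain partner of HSPA8, fell from 119 ± 11.7 to 54.9 ± 0.761 FPKM (log2 fold change -1.11, SE 0.07, adjusted p = 2.02e-05), and this was -0.91 after correction for GC content and -0.98 after median scaling.

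Among 11 other HSP70 and HSP110 genes, 5 fell, 0 rose and 6 did not pass. For this list and those below, the shares of all genes tested were 26.2% lower and 16.6% higher. HSPA14, a ribosome-associated HSP70, fell by 0.79 on the log2 scale (adjusted p = 0.000166), HSPA13 by 0.70 (adjusted p = 0.000891), and the HSP110 genes HSPA4L and HSPA4 by 0.61 and 0.42. HSPA5, the HSP70 of the endoplasmic reticulum, fell by 0.28 (adjusted p = 0.00127), and after median scaling the change was -0.15 (adjusted p = 0.0605). HSPA9, the HSP70 of mitochondria, averaged 125 ± 1.48 FPKM in knockout cells against 129 ± 1.37 FPKM in WT cells (log2 fold change -0.04, adjusted p = 0.393). HSPA2 (log2 fold change -0.26, adjusted p = 0.0989) and HSPA1L (0.27, adjusted p = 0.332) did not pass.

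The other HSP90 genes were divided. HSP90B1, the HSP90 of the endoplasmic reticulum, fell by 0.38 on the log2 scale (adjusted p = 0.00131). TRAP1, its mitochondrial counterpart, rose by 0.38 (adjusted p = 0.000828). Of 7 other small heat shock proteins tested, HSPB8 fell, and CRYAB, at 0.0874 FPKM in knockout and 0.267 FPKM in WT, did not pass (log2 fold change -0.92, adjusted p = 0.0732), though it did without WT replicate 3 (-1.32, adjusted p = 0.0110). CRYAB rested on only 1, 4 and 5 fragments in the knockout libraries and 13, 12 and 3 in the WT libraries. WT replicate 3 was the WT library within the knockout range, so leaving it out removed the overlap.

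Of 34 other J domain protein genes, 18 fell, 1 rose and 15 did not pass, beside 26.2% lower and 16.6% higher among all genes tested. After DNAJA1, the largest decreases at a mean of at least 1 FPKM were those of DNAJC13, an endosomal protein, by 0.84 (adjusted p = 0.000195), DNAJB4, the nearest relative of DNAJB1, by 0.71 (adjusted p = 0.00229), and DNAJB11 by 0.70 (adjusted p = 0.000177). Of 24 co-chaperones of HSP70 and HSP90, 12 fell, 5 rose and 7 did not pass. CHORDC1, an HSP90 co-chaperone, fell by 0.73, BAG2, which inhibits the HSP70 partner ubiquitin ligase CHIP, by 0.68, CDC37L1 by 0.60 and the HSP90-binding cyclophilin PPID by 0.57 on the log2 scale (adjusted p between 0.000438 and 0.00345).

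Of 15 genes of the cytosolic chaperonin TRiC and its partner prefoldin, 11 fell, 1 rose and 3 did not pass. Among all genes tested 26.2% were lower and 16.6% higher. PFDN1 and PFDN4 of prefoldin fell by 0.55 and 0.44, and CCT6A and CCT2 of TRiC by 0.42 and 0.41 on the log2 scale. The 14 genes of mitochondrial chaperones and proteases went both ways, with 6 lower, 4 higher and 4 that did not pass. The matrix proteases CLPP and LONP1 rose by 0.45 and 0.44, and the inner membrane protease YME1L1 fell by 0.39. Of 18 endoplasmic reticulum chaperones, 8 fell, 1 rose and 9 did not pass, DNAJC3 by 0.65, DNAJB9 by 0.48 and the collagen chaperone SERPINH1 by 0.45 on the log2 scale among the decreases. After correction for GC content DNAJB9 was at -0.25 (limma adjusted p = 0.0900) and PFDN4 at -0.16 (adjusted p = 0.106), and DNAJB9 had an adjusted p of 0.0533 without YTHDC2 knockout replicate 3.

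Of 8 heat shock factors and regulators, 3 fell, 1 rose and 4 did not pass, beside 26.2% lower and 16.6% higher among all genes tested. HSF1 itself fell from 55.3 ± 2.89 to 48.4 ± 1.59 FPKM (log2 fold change -0.19, adjusted p = 0.0194) and HSF2 from 24.9 ± 2.38 to 20.6 ± 1.57 FPKM (-0.27, adjusted p = 0.0254). ZFAND2A, an HSF1 target, fell by 0.40 (adjusted p = 0.0192), and HSBP1, which binds HSF1, rose by 0.17 (adjusted p = 0.0350). None of these 4 calls held under every alternative. After median scaling HSF1 was at -0.06 (limma adjusted p = 0.595) and ZFAND2A at -0.28 (adjusted p = 0.0926), HSF2 was at -0.04 after correction for GC content (adjusted p = 0.580), and HSBP1 was at 0.10 with FPKM rescaled to a common total (adjusted p = 0.150). Each also lost the threshold in at least 2 of the fits without 1 library, among them that without WT replicate 2, where the adjusted p was 0.0607 for HSF1, 0.0773 for HSF2, 0.0623 for ZFAND2A and 0.0876 for HSBP1. Of 20 other genes known to be induced by HSF1, several of them also in the lists above, 11 fell, 4 rose and 5 did not pass. The 3-unit promoter match described for HSPA6, HSPA8, HSP90AA1 and HSPD1 was found outside the members for CHORDC1 and SERPINH1, which fell. For SERPINH1 it stood before the first of its RefSeq starts only. It was also found for HSP90AB1, which rose, but only before the third of its starts. DNAJB6 had it too, fell by 0.16 on the log2 scale (limma adjusted p = 0.0253) and is named after its values were seen. A link between the match and the change of a gene was not tested.

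**Figure D4:**
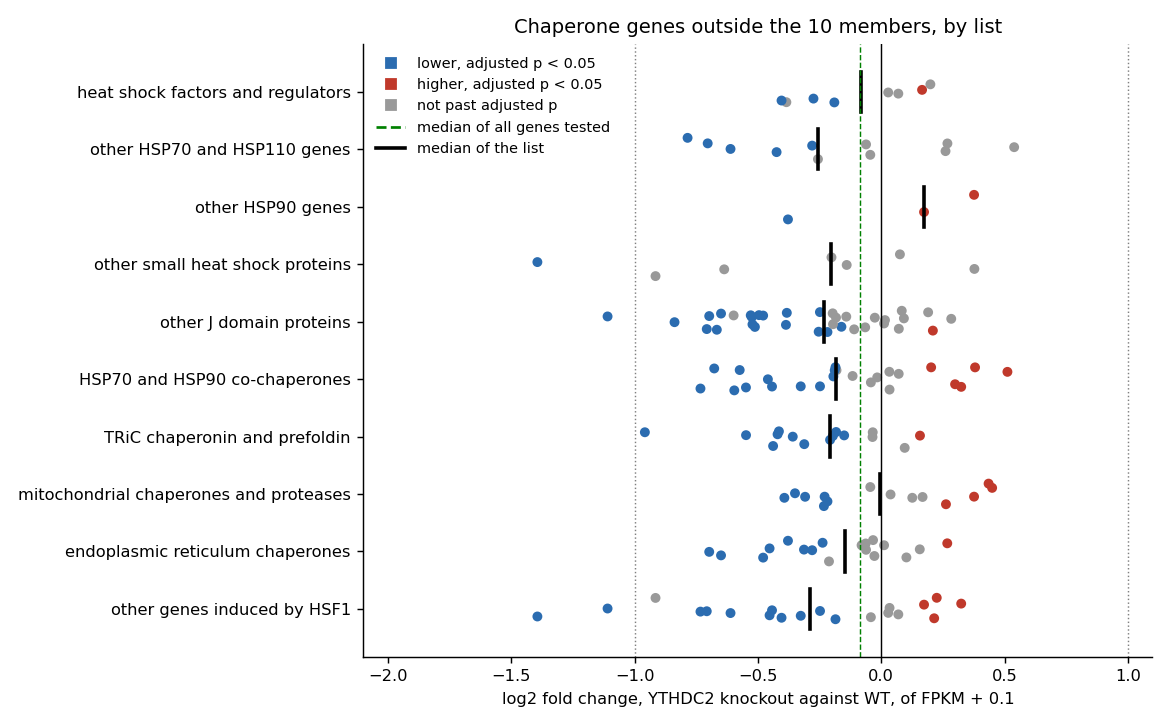
Log2 fold change of FPKM + 0.1 between YTHDC2 knockout and WT for chaperone genes outside the 10 members, 1 point per gene and 1 line per list (some genes stand in more than 1 list), with black bars at list medians and the green line at the median of all genes, -0.09. Points are blue where lower and red where higher at an adjusted p under 0.05; HSPB8 at -1.39 and DNAJA1 at -1.11 lie beyond the dotted line at -1.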

How the data were processed

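RNA from YTHDC2 knockout and WT H1975 cells (3 libraries each) had been sequenced by the authors, who deposited FPKM values of 16760 genes. The genome build was GRCh38.p13 per the submitters' processing notes. The aligner, counting tool, annotation and strand setting were not given in the sources used here. Fragments per gene were recovered from the steps of the FPKM values, whole within 0.02 for all 16760 genes, with 27200187 to 33823371 fragments per library.

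Values were tested as log2(FPKM + 0.1) with limma 3.58.1 (R 4.3.3, trend and robust moderation) for 15441 genes above 0 in at least 3 of 6 libraries, with Benjamini-Hochberg adjustment. Calls needed an adjusted p under 0.05 together with a log2 fold change beyond 1 in either direction. The pipeline was tested on simulated data. Members and the 10 gene lists were chosen with earlier results of these data known, and no set test was run. Genes named were the members, YTHDC2, HSF1, 8 near relatives, up to 4 genes per list (adjusted p under 0.05, mean of at least 1 FPKM, largest absolute change) and the 3 genes closest to the members' median profile. Expression of CRYAA and CD3E was not analysed here. Alternatives were pseudocounts of 0.01 and 1, other filters and scalings, limma without trend and robust moderation, a correction for GC content (97.3% of genes matched), HSPA1A and HSPA1B summed, a replicate block, leaving out each library, and, added after the data were seen, limma voom on recovered fragments with library totals. Promoters were from RefSeq (GRCh38.p14) and transcripts from GENCODE 29.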

Additional observations from a re-analysis of the deposited data

How the results depend on the processing

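The replicate numbers did not pair the libraries (correlations of the deviations of same-numbered libraries 0.0762, 0.0186 and -0.0239), and with the replicate number as a block 309 genes were called lower and 112 higher, in place of 307 and 113. Over all genes, the lower and higher counts were 505 and 184 with a pseudocount of 0.01, 69 and 29 with 1, 126 and 80 among genes averaging 1 FPKM or more, 292 and 55 after correction for GC content, 228 and 194 after median scaling, 206 and 195 after quantile normalization, 479 and 168 with limma voom, and 4044 and 2563 by adjusted p alone. Median scaling moved the median log2 fold change of all genes from -0.09 to 0.02. Of the 2 members called lower, 1 was left after correction for GC content, after median scaling and without WT replicate 2 (range 1 to 2 over libraries left out), which was HSPA6, and 1 with limma voom, which was HSPH1. By adjusted p alone 7 were lower and 2 higher. Other chaperone genes called lower numbered 1 rather than 2 after correction for GC content and after median scaling, 3 with a pseudocount of 0.01, a common total, limma voom, and without WT replicate 1, WT replicate 3 or YTHDC2 knockout replicate 1 (range 2 to 3 over libraries left out), and 60 lower and 16 higher by adjusted p alone. HSPA9 turned to 0.11 after correction for GC content. Of 178 recomputed values of members, 162 moved by less than the spread between replicates and 16 moved further. The 162 include values that could not move, so they are no measure of stability. Changing only the filter, the moderation or the block leaves a member's fold change as it was. Summing HSPA1A and HSPA1B does the same for the other members. The cause of the shifts was not tested. Depth limits HSPA6, which rests on 31 fragments in knockout.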
